A study of Mus musculus with 23 samples.

Results

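The cytosolic ribosomal protein genes encode the protein part of the ribosomes that translate nuclear messages. They were followed here in CD103+ cDC1, the dendritic cell subset known for carrying tumour antigen to CD8 T cells, sorted from mouse melanomas. The members were chosen by symbol: rows named Rpl or Rps with a number and an optional paralog letter, Rplp0 to Rplp2, and Rpsa. This gave 87 of the 13572 gene rows, 35 of the small and 52 of the large subunit. The family was proposed because its share of the counts differed between the tumour groups, so all values of that contrast are a description of the members and support nothing further.

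The first group held cDC1 from tumours of Ptgs1/Ptgs2 KO BRAFV600E melanoma cells, which lack both cyclooxygenases and with them the starting step of prostaglandin E2 synthesis. The second held cDC1 from tumours of control BRAFV600E melanoma cells, which make prostaglandin E2. Both kinds of tumour carry BRAFV600E and grew under the skin of wild-type C57BL/6 mice, so the deletion is in the cancer cells and not in the cells that were sequenced. The labels do not say how many knockout clones were used, nor the age of the mice. Tumours were taken 6 days after injection and digested with collagenase and DNase, and live cells were sorted by the gate CD45+ MHC-II+ CD11c+ CD103+ CD11b-. Each Smart-seq3 library was made from 10 cells. There were 11 libraries from 4 KO mice and 12 from 4 control mice, and the libraries of a mouse are technical replicates per the labels.

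A ribosome consists of a small subunit, which reads the message, and a large subunit, which joins the amino acids, and each ribosomal protein is present once per ribosome except the stalk proteins P1 and P2. Messages of these proteins begin with a run of pyrimidines at their 5′ end, the TOP motif, through which their translation follows the activity of mTOR. Their messages are among the most abundant of most cells, and their genes are scattered over the genome. Many have left processed pseudogenes, copies of the spliced message without introns.

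The start regions of members named in the results below are shown first, because the TOP motif sits there. RefSeq (GRCm38.p6) gave 75 start regions for 63 of the 87 members, each from 250 bases before to 50 after the annotated start. The windows below run from 10 bases before the start to base 20 after it, 5′ to 3′ on the gene's strand. Capitals mark a C at positions -5 to 1 followed by at least 5 bases that are C or T, and the letters CCGGAAG, the core of a site for ETS family factors. The Rps27 window lies at chr3:90213629-90213658 (minus strand), that of Rps15a at chr7:118116128-118116157 (minus) and that of Rpl31 at chr1:39367841-39367870 (plus). The Rpl13a window lies at chr7:45128726-45128755 (minus), that of Rplp0 at chr5:115559457-115559486 (plus) and that of the first annotated start of Rps27l at chr9:66946076-66946105 (plus).
Rps27: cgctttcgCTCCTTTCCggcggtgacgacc
Rps15a: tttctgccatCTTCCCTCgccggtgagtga
Rpl31: tcctcgCCTCCCCgtgacCCGGAAGttgta
Rpl13a: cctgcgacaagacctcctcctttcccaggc
Rplp0: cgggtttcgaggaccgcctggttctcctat
Rps27l: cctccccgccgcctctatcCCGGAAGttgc

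The pyrimidine run stood at the annotated start of Rps27, Rps15a and Rpl31, and Rpl31 and Rps27l carried CCGGAAG just after their starts. Rpl13a had a pyrimidine run too far downstream of the annotated start to be counted. Rplp0 had only a shorter stretch of C and T, also downstream, that was not counted. Over the family, 20 of 75 start regions (26.7%) held the run, against 5.55% of the 32851 start regions of all genes. CCGGAAG, on either strand and anywhere in the 300 bases, was in 26 of 75 (34.7%), against 8.86% of all start regions. The letters TATAAA before the start, on the gene's strand, were in 3 of 75 (4.00%), against 7.59% of all. A match is a description of the letters and depends on where RefSeq places the start.

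Ribosomal protein messages made up 170040 of 1152561 counts (14.8%) over the 23 libraries. All 87 members were found in the GENCODE M21 annotation (GRCm38), on 19 chromosomes, 82 as protein-coding genes and 5 as pseudogenes (Rps3a2, Rps3a3, Rpl6l, Rpl32l and Rps4l). Of the members, 83 had counts in every library. The most counted was Rpl41, the smallest protein of the large subunit, with 4938 counts. It was followed by 5 genes of the small subunit, Rps29 with 4760, Rps27 with 4292, Rps24 with 4218, Rps23 with 3765 and Rps14 with 3662. These 6 genes held 15.1% of the family's counts, and Rpl41 had 2.70 times the counts of the median member (1831). Per kilobase of transcript, taking the median length of each gene's protein-coding transcripts, Rps29 led with 12205 counts, before Rps27 with 10770, Rpl38 with 9603 and Rpl41 with 9379. The members with the fewest counts were Rpl7l1 with 61, Rpl32l with 42, Rps4l with 4 and Rpl3l with 3. Rpl3l, a muscle paralog of Rpl3, had 0 counts in KO libraries and 3 in control libraries. Rpl10l and Rpl39l were not analysed here.

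The sorted cells carried the cDC1 markers, and the libraries also held small amounts of other cells' RNA, with overlap of the groups for each list of another cell type. Depth was 101017 to 230478 counts per KO mouse and 113263 to 155070 per control mouse. All 14 cDC1 markers examined had counts, with sums of 587 to 1279 per KO mouse and 422 to 602 per control mouse. These and the sums below are not divided by depth. In the edgeR test described below, 5 of 13 tested cDC1 markers were called higher in KO and 0 lower. Of all tested genes 2.7% were called higher. Macrophage markers (9 of 10 with a row) summed to 2 to 9 counts per KO mouse and 1 to 136 per control mouse, with C1qb at 0 in KO. A pool of control mouse 2 held 116 of these counts and a pool of control mouse 4 held 123. Plasmacytoid dendritic cell markers (8 of 8) summed to 25 to 80 per KO mouse and 14 to 130 per control mouse, with Siglech, Ly6d, Klk1 and Cox6a2 at 0 in KO and Smim5 at 0 in both. cDC2 markers (8 of 8) summed to 6 to 52 per KO mouse and 26 to 82 per control mouse, with Clec4a4 at 0 in KO. T and NK cell markers (9 of 12) summed to 0 to 32 per KO mouse and 0 to 11 per control mouse, with Trbc1 and Gzmb at 0 in control and Cd4 at 0 in both. Monocyte and neutrophil markers (3 of 8) summed to 91 to 438 per KO mouse and 72 to 201 per control mouse. B cell markers (2 of 6, Cd79b at 0 in both) reached at most 16 per KO mouse and 8 per control mouse, and melanoma markers (2 of 8, Pmel at 0 in KO) at most 1 and 5. Mitochondrial and ribosomal RNA rows held 10.2 ± 2.93% of the counts of KO mice and 12.1 ± 2.05% of those of control mice (SD, n = 4 each).

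Ribosomal protein messages took a smaller share of the counts in cDC1 from KO tumours. The share was 13.2, 13.0, 14.8 and 12.4% in KO mice 1 to 4, against 16.7, 16.0, 15.9 and 15.8% in control mice 1 to 4. The highest KO mouse lay below the lowest control mouse, so the groups did not overlap. The mean was 13.3 ± 1.03% in KO mice and 16.1 ± 0.422% in control mice (SD, n = 4 each), a difference of -2.75 percentage points and a ratio of 0.83. Since a pool holds RNA of several cells and the share is relative to all other messages, fewer cells of a type and less RNA per cell cannot be told apart.

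Single pools showed the same difference with overlap. KO mouse 1 had pools at 11.9, 13.3 and 14.1%, KO mouse 2 at 14.6 and 11.3%, KO mouse 3 at 15.5, 13.5 and 15.0%, and KO mouse 4 at 12.1, 11.3 and 14.5%. Control mouse 1 had pools at 13.7, 18.9 and 17.1%, control mouse 2 at 15.8, 15.9 and 16.4%, control mouse 3 at 17.1, 15.7 and 15.4%, and control mouse 4 at 14.8, 16.5 and 16.4%. Of the KO pools, 6 of 11 were below the lowest control pool, and 9 of 12 control pools were above the highest KO pool. The lowest control pool and the highest came from the same mouse. Pools of one mouse had an SD of 1.52 points on average in KO mice and 1.21 points in control mice, which is wider than the exact (Clopper-Pearson) 95% binomial interval of a single pool. For the lowest KO pool, at 11.3%, that interval ran from 11.0 to 11.6%. Intervals cover counting error only.

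**Figure D1:**
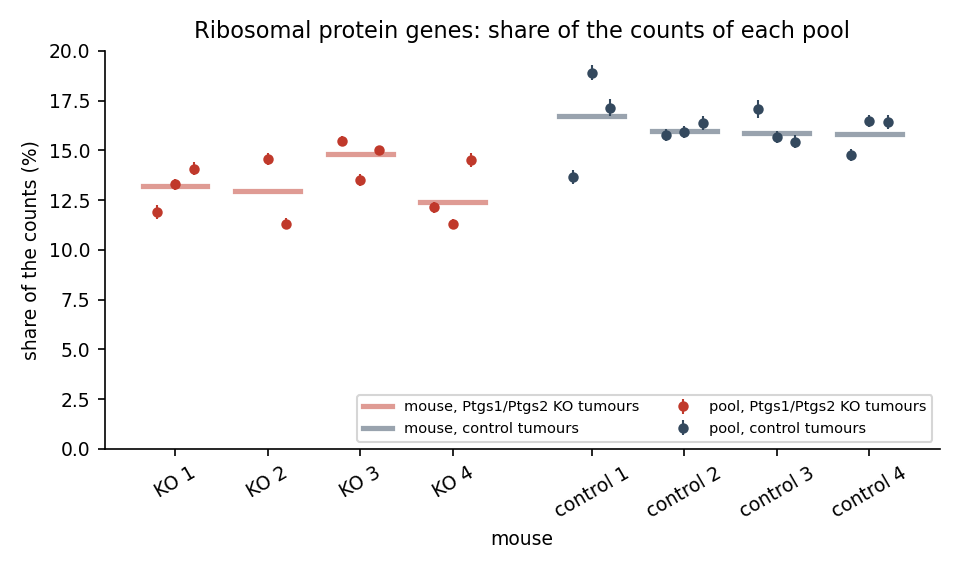
Share of the counts of each pool in the 87 ribosomal protein genes (y axis, %), by mouse (x axis). Points are pools with exact 95% binomial intervals and thick lines are mice with their pools summed. KO mice lie between 12.4 and 14.8%, all below the control mice at 15.8 to 16.7%, while single pools overlap.

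Both subunits took a smaller share in KO mice. Small subunit genes held 6.17 ± 0.468% of the counts of KO mice and 7.39 ± 0.147% of those of control mice. Large subunit genes held 7.17 ± 0.567% in KO mice and 8.71 ± 0.319% in control mice (SD, n = 4 each). The groups did not overlap for either subunit. The ratio of small to large subunit counts was 0.860 ± 0.0106 in KO mice and 0.850 ± 0.0251 in control mice, and the groups overlapped.

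The size of the difference depended on the scaling, and its direction did not. Levels are given below as CPM, counts of a gene per 1000000 counts of the tested genes, scaled by TMM (trimmed mean of M values) unless another scaling is named. The summed CPM of the tested members were 171857, 155303, 174143 and 147798 in KO mice, against 217771, 207376, 196808 and 192310 in control mice. The KO mean was 0.797 times the control mean, -0.33 on the log2 scale. Without scaling factors the ratio was 0.847 (-0.24), with DESeq2-type RLE factors 0.798 (-0.32), with upper quartile factors 0.759 (-0.40), and with factors and totals from the other genes alone 0.771 (-0.37). The groups did not overlap under any of these 5 scalings. The median of all tested genes was 0.01 with TMM, 0.09 without factors and -0.06 with upper quartile factors. The median of the members lay 0.33 below the median of all tested genes under each of the 5 scalings. A change of scaling shifts all genes by about the same amount, so this gap could hardly differ between scalings.

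**Figure D2:**
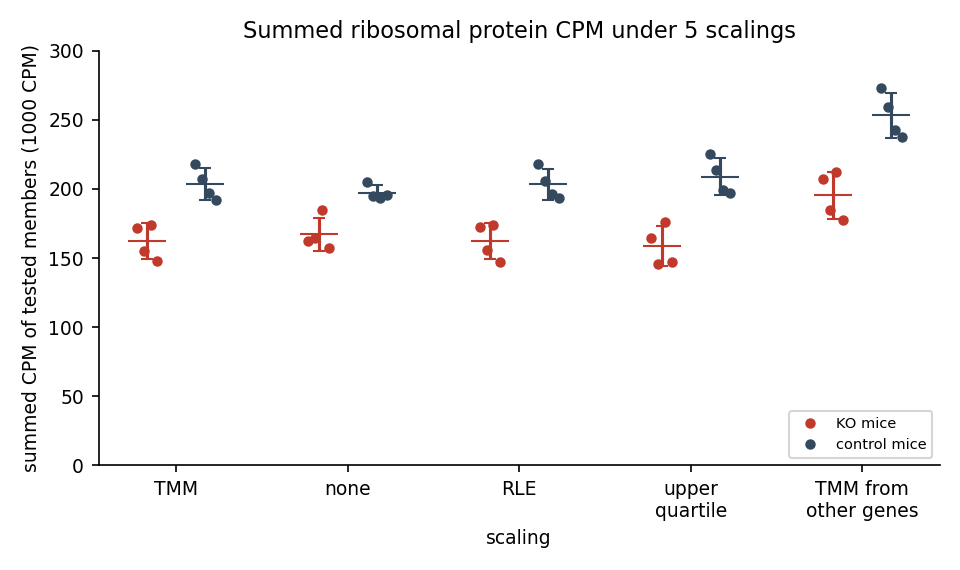
Summed CPM of the 83 tested ribosomal protein genes (y axis, in units of 1000 CPM) under 5 scalings (x axis). Points are mice, with KO mice left of control mice in each pair, and bars are the mean and SD (n = 4 each). KO mice lie below control mice under every scaling shown, with ratios of the means between 0.759 and 0.847.

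Gene by gene, nearly the whole family leaned one way by a small amount, and a minority passed the test. Genes were fitted with edgeR's quasi-likelihood test on counts summed per mouse, and a gene was called at a Benjamini-Hochberg adjusted p under 0.05 over all 2076 tested genes. Of the 87 members, 83 passed the filter on low counts, which a gene can pass through the mice of 1 group alone. Log2 fold changes were negative for 80 of 83, and their median was -0.32 (quartiles -0.40 and -0.22), against 0.01 over all tested genes. The test called 8 members lower in KO, 2 of the small and 6 of the large subunit, where 2.26% of all tested genes were called lower. It called 0 members higher, where 2.7% of all tested genes were called higher. At unadjusted p under 0.05 the counts were 47 lower and 0 higher, where 9.1% of all tested genes were lower and 9.63% higher. DESeq2 called 5 members lower and 0 higher, where it called 1.78% of all tested genes lower and 2.41% higher. limma-trend called 7 lower and 0 higher, where it called 2.02% of all tested genes lower and 2.65% higher. For 36 members (43.4%) all 4 KO mice were below all 4 control mice, where 5.73% of all tested genes were so separated. In the opposite direction the count was 0, against 4.91% of all tested genes. The estimated biological coefficient of variation had a median of 15.2% over the members, against 22.0% over all tested genes. The median standard error of the log2 fold change was 0.14, against 0.32. Both depend on how strongly a gene is counted, as do the calls and the separation of the mice. At a minimum count of 30, 82 members were among the 677 tested genes, so nearly all members were strongly counted. They were not compared with genes of like counts.

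These calls lay close to the threshold and turned on single mice. The number of members called lower was 8 without KO mouse 3, 5 without KO mouse 1, 4 without control mouse 4 and 3 without KO mouse 2. It was 2 without control mouse 2 and 1 without KO mouse 4, control mouse 1 or control mouse 3. Over these 8 fits between 0.941 and 1.99% of all tested genes were called lower. Of the 8 members called without KO mouse 3, 6 were among those called with all mice. The members gained, named here after their values were seen, were Rpl15 and Rps25 without KO mouse 3, Rpl27a without KO mouse 1, Rpl22l1 without KO mouse 2 and Rps16 without control mouse 4. Rpl31 kept its call without any mouse but control mouse 4. Rplp0 kept it without KO mice 1 or 3 and control mice 2 or 4, Rpl13a and Rpl13 without KO mouse 1 or control mouse 4, and Rps27 without KO mice 2 or 3. Rps15a, Rpl23a and Rpl37a kept it without KO mouse 3. Over these 8 fits the members' median log2 fold change stayed between -0.36 and -0.29, and 77 to 81 of the 83 were negative. The family was chosen for a share that differed between these same mice, and the groups did not overlap in it. Leaving out 1 mouse could therefore hardly turn the lean.

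**Figure D3:**
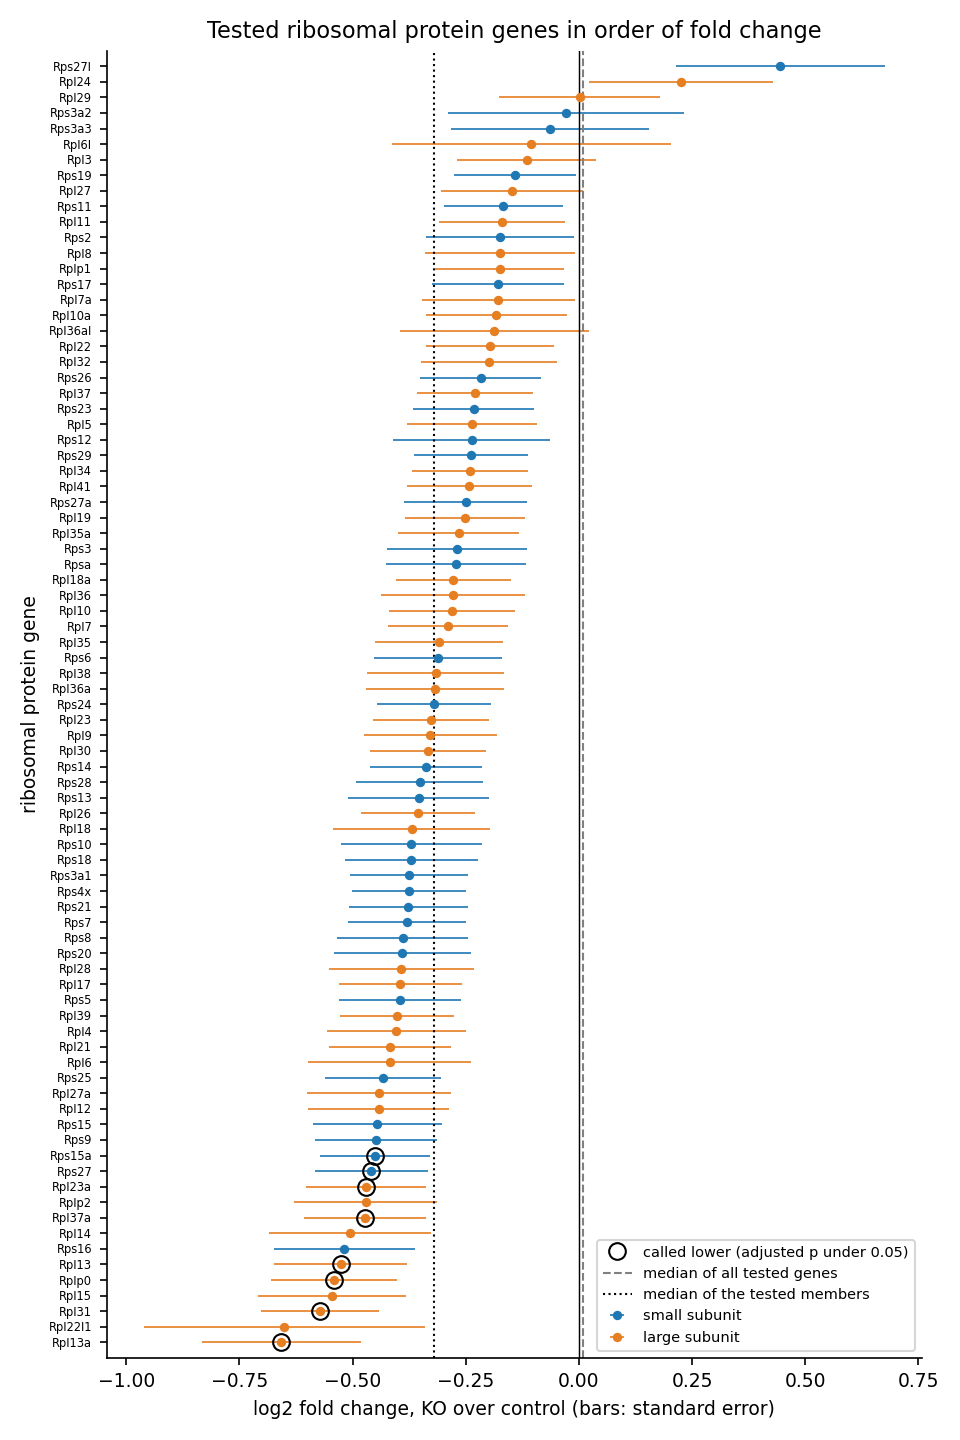
Log2 fold change, KO over control, with its standard error (x axis) for the 83 tested ribosomal protein genes in order (y axis), coloured by subunit, with rings on the 8 called lower. All but Rps27l, Rpl24 and Rpl29 lie left of 0, and the median of the members (-0.32) lies left of that of all tested genes (0.01).

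The difference was seen in all 4 KO mice and was not even among them. Against the control mean, 78, 78, 72 and 79 of the 83 members were lower in KO mice 1 to 4, and 14, 32, 60 and 66 in control mice 1 to 4. The median log2 ratio to the control mean was -0.26, -0.43, -0.23 and -0.42 in the KO mice, and 0.11, 0.03, -0.06 and -0.08 in the control mice. KO mice 2 and 4 lay lowest, and control mouse 1 lay highest.

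Among the large subunit genes called lower, Rplp0 encodes P0, the base of the stalk that binds elongation factors (chr5:115559467-115563727). Its CPM were 1920, 1566, 1822 and 1659 in KO mice, against 2841, 2297, 2780 and 2250 in control mice. The groups did not overlap, and the log2 fold change was -0.54 ± 0.14 (SE). Its stalk partners did not pass the test. Rplp1 had 4366, 2930, 3623 and 3459 CPM in KO mice, against 4475, 4035, 4376 and 3379 in control mice, and Rplp2 had 2242, 1495, 1980 and 1800 CPM in KO mice, against 3175, 2805, 2369 and 2109 in control mice. Their log2 fold changes were -0.18 ± 0.14 and -0.47 ± 0.16, with overlap of the groups for both.

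Rpl31, a large subunit protein near the exit of the nascent chain tunnel (chr1:39367842-39371911), had 2885, 2586, 3204 and 2534 CPM in KO mice, against 4245, 3708, 4155 and 4587 CPM in control mice. All KO mice were well below all control mice, and the log2 fold change was -0.57 ± 0.13. The call of Rpl31 was made in 20 of the 24 alternative settings, more than for any other member. Rpl23a, which helps to dock the signal recognition particle at the tunnel exit (chr11:78180932-78183584), had 2115, 1886, 2184 and 1849 CPM in KO mice, against 2841, 3089, 2489 and 2728 CPM in control mice. These groups were separated too, with a log2 fold change of -0.47 ± 0.13.

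Rpl13a, whose human counterpart also takes part in translational silencing after interferon gamma (chr7:45125558-45128761), had the most negative fold change of the family, -0.66 ± 0.18. Its CPM were 1852, 996.4, 1260 and 1222 in KO mice, against 2278, 2426, 1947 and 1772 in control mice. KO mouse 1 was above control mouse 4, which made it the only called member whose groups overlapped. Rpl13, another large subunit protein (chr8:123102350-123105244), had 1813, 1423, 1689 and 1502 CPM in KO mice, against 2761, 2435, 2168 and 1929 CPM in control mice, without overlap (-0.53 ± 0.15). Without libraries that held markers of other cells, by the lists without Bst2 and Tcf4, it was -0.33 and was not called. Rpl37a, a zinc-binding protein of the large subunit (chr1:72711290-72713813), had 3275, 3167, 3444 and 2435 CPM in KO mice, against 4613, 4388, 3954 and 4163 CPM in control mice, without overlap (-0.47 ± 0.13).

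Of the large subunit genes that did not pass the test, Rpl15 had 857.6, 913.4, 1138 and 742.9 CPM in KO mice, against 1357, 1256, 1485 and 1270 CPM in control mice. Its groups did not overlap and its log2 fold change was -0.55 ± 0.16. It was called in 4 of the 24 alternative settings, with upper quartile factors, with factors and totals from the other genes, with robust dispersion and without KO mouse 3. Among panel genes the log2 fold change was -0.40 ± 0.13 for Rpl39, which lines the exit tunnel, -0.29 ± 0.13 for Rpl7 and -0.28 ± 0.14 for Rpl10, which joins the subunit late in its assembly. The KO mice were below the control mice for all of these genes. Rpl3, which helps to form the peptidyl transferase centre, was nearly level, at 1277, 1257, 1240 and 1090 CPM in KO mice, against 1587, 1334, 1255 and 1106 CPM in control mice (-0.12 ± 0.15). Rpl41 had 5770, 4757, 5251 and 3690 CPM in KO mice, against 5820, 5765, 5952 and 5488 CPM in control mice (-0.24 ± 0.14), with overlap through KO mouse 1.

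In the small subunit, Rps27, a zinc finger protein (chr3:90212522-90213651), was called lower. It had 3869, 4282, 4087 and 3426 CPM in KO mice, against 5314, 5825, 5169 and 5206 CPM in control mice. The groups did not overlap and the log2 fold change was -0.46 ± 0.12. Without libraries that held 10 or more counts of other cells' markers it was -0.16 for the full marker lists and -0.23 for the lists without Bst2 and Tcf4, without a call. Rps15a, a small subunit protein (chr7:118104372-118116188), had 3109, 3072, 3113 and 2683 CPM in KO mice, against 4130, 3992, 4135 and 4116 CPM in control mice, with a log2 fold change of -0.45 ± 0.12. Its control mice were close together, and its call was made in 10 of the 24 alternative settings.

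The other abundant small subunit genes leaned the same way without a call. Rps29 had 4464, 4033, 5057 and 5011 CPM in KO mice, against 5360, 5988, 5289 and 5292 CPM in control mice (-0.24 ± 0.13). Rps24, whose human counterpart is mutated in some families with Diamond-Blackfan anaemia, had 4542, 4270, 4006 and 3516 CPM in KO mice, against 5337, 4896, 5259 and 4892 CPM in control mice (-0.32 ± 0.13). Rps14 had 3479, 3737, 3490 and 3318 CPM in KO mice, against 4440, 4990, 4225 and 4054 CPM in control mice (-0.34 ± 0.12). The groups of these genes did not overlap. Those of Rps23 did, with a mean of 3701 ± 510 CPM in KO mice and 4354 ± 358 CPM in control mice (SD, n = 4 each).

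Rps4x, encoded on the X chromosome, had 2397, 2384, 2378 and 2369 CPM in KO mice, against 3244, 3201, 2660 and 3254 CPM in control mice (-0.38 ± 0.13), without overlap and with nearly equal KO mice. Rps18 also had groups that did not overlap (-0.37 ± 0.15). Rps6, the target of the S6 kinases downstream of mTOR, had 1676, 1779, 2031 and 1585 CPM in KO mice, against 2278, 2478, 1877 and 2156 CPM in control mice (-0.31 ± 0.14). Its groups overlapped, as did those of Rps27a, made as a fusion with ubiquitin (-0.25 ± 0.14), Rpsa, also known as the laminin receptor (-0.27 ± 0.15), Rps3 (-0.27 ± 0.15) and Rps2 (-0.17 ± 0.16).

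A few members did not share the lean of the family. Rps27l, a paralog of Rps27 that is a p53 target in human cells, had 1628, 2396, 1087 and 957.5 CPM in KO mice, against 805.2, 1205, 1174 and 1200 CPM in control mice. KO mice 1 and 2 were above all control mice and KO mice 3 and 4 were below control mice 2 to 4. Its log2 fold change of 0.44 ± 0.23 did not pass the test. It was 0.15 without KO mouse 2 and 0.15 to 0.60 over the fits that left out a mouse. Without libraries with other cells' markers it was 0.095 by the full lists and 0.81 by the lists without Bst2 and Tcf4, in both without a call. Rpl24 had 428.8, 474.5, 443.9 and 569.6 CPM in KO mice, against 402.6, 464.6, 351.3 and 415.5 CPM in control mice (0.23 ± 0.20). Rpl29 was level at 676.1 ± 99.8 CPM in KO mice and 680.0 ± 49.7 CPM in control mice (SD, n = 4 each). Neither Rpl24 nor Rpl29 was called, and their groups overlapped.

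The share of Rps27l within its pair with Rps27 differed between the groups. Rps27l held 29.6, 35.9, 21.0 and 21.8% of the counts of the pair in KO mice, against 13.2, 17.1, 18.5 and 18.7% in control mice. The mean was 27.1 ± 7.03% in KO mice and 16.9 ± 2.58% in control mice (SD, n = 4 each), and the groups did not overlap. In KO mice 3 and 4 the CPM of Rps27l were below those of control mice 2 to 4, and the CPM of Rps27, the other part of the pair, were below those of every control mouse. In single pools the share ran from 16.0% with a median of 24.2% to 49.1% over 11 KO pools, and from 10.2% with a median of 15.8% to 25.5% over 12 control pools. The KO pool at 49.1% came from KO mouse 2 and held 138 counts of Rps27l and 143 of Rps27. Of the KO pools, 4 of 11 were above the highest control pool. The range over the pools of each group was wider than the difference between the group means. The paralogs are similar in sequence, and how reads that match both were counted is not given in the sources used here.

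The other paralogs and copies kept overlapping shares of their pairs. Rpl22l1, which Rpl22 represses in mice, held 12.7, 30.3, 22.2 and 13.9% of the pair with Rpl22 in KO mice, against 27.5, 23.5, 17.5 and 34.9% in control mice. Its log2 fold change of -0.65 ± 0.31 was the second most negative of the family and did not pass the test, with a wide spread within both groups. Without KO mouse 2, which had the most Rpl22l1 of the KO mice, it was -1.03 and was called. Without control mouse 4 it was -0.43, without a call. Rpl36al held 28.7 ± 5.92% of the pair with Rpl36a in KO mice and 26.7 ± 3.26% in control mice. Beside Rps3a1, the annotated pseudogenes Rps3a3 and Rps3a2 held 17.9 ± 3.32 and 13.7 ± 3.66% of their pairs in KO mice, and 15.0 ± 1.15 and 11.1 ± 0.273% in control mice. Rpl6l held 10.8 ± 3.24% of the pair with Rpl6 in KO mice and 8.88 ± 1.63% in control mice (SD, n = 4 each).

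**Figure D4:**
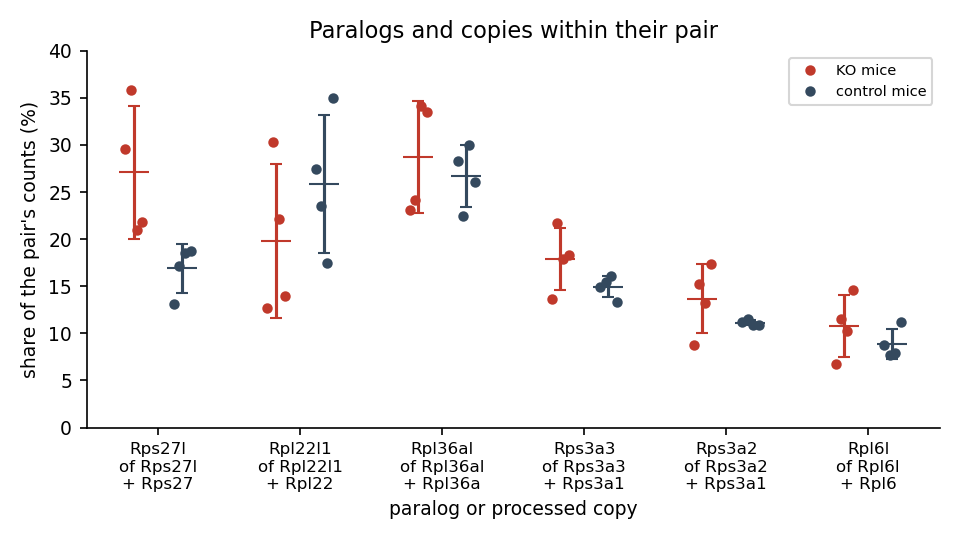
Share of the counts of a pair of related genes that fell to the paralog or copy (y axis, %), for 6 pairs (x axis). Points are mice, with KO mice left of control mice in each pair, and bars are the mean and SD (n = 4 each). The groups do not overlap for Rps27l (27.1 and 16.9% on average) and overlap for the other pairs.

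Rows named as pseudogenes of the members also held counts, and any split of reads between a gene and its copies makes single members uncertain. Whether reads of the members fell to these rows was not tested. The rows were matched by a symbol ending in -ps with an optional number, so copies under other symbols were not counted. Rows annotated as pseudogenes of any gene numbered 2067 and held 11.3% of all counts. The 214 rows matched by symbol held 26775 counts, 2.32% of all, led by Rps19-ps6 with 1563 counts, Rpl39-ps with 1531, Rps18-ps3 with 1041 and Rpl17-ps8 with 965. They took 2.19 ± 0.326% of the counts of KO mice and 2.42 ± 0.0920% of those of control mice, with overlap. Relative to the members' counts the ratio was 0.164 ± 0.0245 in KO mice and 0.150 ± 0.00345 in control mice (SD, n = 4 each). Of the 78 tested rows, 63 had negative fold changes, with a median of -0.18. edgeR called 0 of them, with 5 lower and 0 higher at unadjusted p under 0.05, DESeq2 called 0 and limma-trend 1. With each of the 214 rows added to its parent gene, 5 members were called lower in place of 8. Of all tested genes, 2.15% were then called lower in place of 2.26%.

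Genes that complete the ribosome or work with it were examined beside the members. Fau encodes a ribosomal protein of the small subunit fused to a ubiquitin-like protein, and Rack1 is a scaffold on the same subunit. On the log2 scale Fau differed by -0.42 ± 0.16 (adjusted p = 0.137) and Rack1 by -0.11 ± 0.16 (adjusted p = 0.789) in edgeR's quasi-likelihood test, and neither was called. Of the 13 tested elongation factors and other TOP genes, edgeR called 1 lower and 0 higher, and the median was -0.18. DESeq2 called 0 of the 13, and limma-trend called 1 lower and 0 higher. The gene called by edgeR was Tpt1, which encodes the translationally controlled tumour protein and has a classical TOP message. It had 3109, 1922, 2077 and 2848 CPM in KO mice, against 3922, 3700, 3623 and 3215 CPM in control mice. The groups did not overlap, and the log2 fold change was -0.54 ± 0.15 (adjusted p = 0.0497, edgeR), close to the threshold. The call of Tpt1 held without KO mouse 1 or KO mouse 4 (adjusted p = 0.0191 and 0.0490, edgeR) and was lost without any of the other mice, with an adjusted p of up to 0.139. It was also lost without libraries with other cells' markers, where the log2 fold change was -0.34 by the full lists and -0.43 by the shorter lists. Eef1a1, which brings aminoacyl-tRNA to the ribosome, had -0.18 ± 0.12 (adjusted p = 0.491) and Eef2, the translocation factor, -0.37 ± 0.20 (adjusted p = 0.342).

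The lists of initiation factors, ribosome biogenesis genes and mitochondrial ribosomal proteins held no called gene. Of 25 tested initiation factors, 12 had positive and 13 negative fold changes with a median of -0.04, and edgeR called 0, with 1 higher and 0 lower at unadjusted p under 0.05. Of 40 ribosome biogenesis genes 7 were tested, with a median of -0.19, and edgeR called 0, also 0 at unadjusted p under 0.05. They included the nucleolar protein nucleolin, Ncl, at -0.24 ± 0.20 (adjusted p = 0.577). Of 77 genes of the mitochondrial ribosome 15 were tested, with a median of 0.14, and edgeR called 0, with 0 higher and 1 lower at unadjusted p under 0.05. DESeq2 and limma-trend also called 0 in these 3 lists. None of the 11 S6 kinases and genes with similar symbols passed the filter on low counts. Whether the members differ from these lists was not tested.

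**Figure D5:**
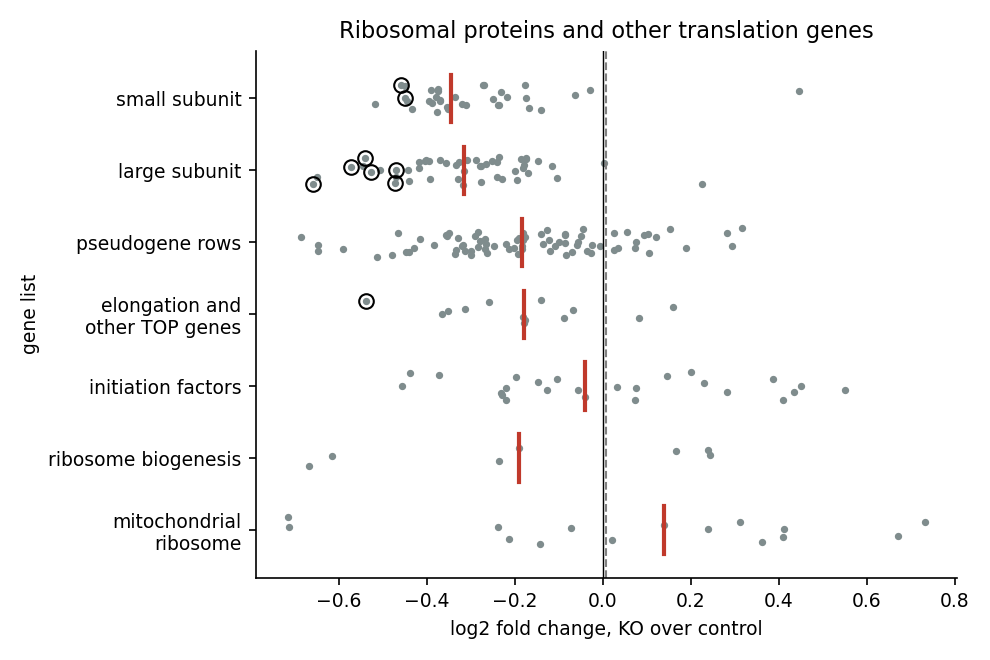
Log2 fold change, KO over control (x axis), of the tested genes of 7 lists (y axis). Grey points are genes, rings are called genes, red bars are list medians and the dashed line is the median of all tested genes. The subunit lists have medians of -0.34 and -0.32, and the initiation factors and the mitochondrial ribosome have medians of -0.04 and 0.14.

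The difference in share remained and the calls did not when libraries with markers of some other cell types were left out. Markers of cDC2, monocytes and neutrophils, B cells and melanoma were not used to leave out libraries, here or in the other subsets by markers. Of the KO libraries 3 of 11, and of the control libraries 6 of 12, held at least 10 counts of macrophage, plasmacytoid dendritic cell, T and NK cell markers, leaving out Bst2 and Tcf4, which nearly all libraries held. Without them the share was 13.1 ± 1.38% in KO mice and 15.8 ± 0.505% in control mice (SD, n = 4 each), a difference of -2.75 points, and the groups did not overlap. In that subset 0 of 83 members were called by edgeR, where 24 of 1131 tested genes were called, 18 higher and 6 lower. At unadjusted p under 0.05, 1 member was higher and 12 were lower. Of all 1131 tested genes, 108 were higher and 68 lower at that threshold. The members' median log2 fold change there was -0.24, and 77 of 83 were negative. That setting was chosen after seeing the data. The planned subset, by the full lists with Bst2 and Tcf4, left 2 KO and 4 control libraries from 2 KO and 3 control mice. Its share was 12.0 ± 0.170% in KO mice and 15.75 ± 0.563% in control mice (SD), a difference of -3.74 points without overlap. Over all libraries, without mitochondrial and ribosomal RNA rows, the share was 14.9 ± 1.17% in KO mice and 18.3 ± 0.797% in control mice, again without overlap.

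The genes outside the family whose level followed the summed members most closely were named by the Pearson correlation of log2(CPM + 1) over the 8 mice, among 1993 tested genes. They were Rpl21-ps15 (0.97), a processed copy of Rpl21, then Ist1 (0.94), an ESCRT factor, Gm15427 (0.94), Bcl2l11 (0.93), which encodes the BH3-only protein Bim, and Gm5905 (0.92). The mice of both groups enter these values, so any gene that differed between the groups can rank high.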

How the data were processed

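RNA of pools of 10 sorted CD103+ cDC1 was measured by Smart-seq3. The values are raw counts, deposited by the authors as 1 table with a whole number for each gene row and library. Per the submitters' processing notes, reads were aligned with STAR 2.5.4b to GRCm38 (mm10). Not given in the sources used here: the counting program, the treatment of reads that match several places, and whether reads or molecules were counted. Amplified reads are not independent molecules. Pools hold 25571 to 98554 counts.

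Members and lists were matched by symbol and given coordinates and types from GENCODE M21 by gene identifier. The members and gene lists were chosen with earlier results of these data known. Counts of the pools of a mouse were summed, giving 4 KO and 4 control mice. Mice of the same number were not paired, since their deviations from the group means correlated by -0.0893 to 0.1. Genes were filtered with filterByExpr (minimum count 10), leaving 2076 with 80.6% of the counts, and tested with edgeR 4.0.16 (quasi-likelihood F-test, TMM, two-sided, Benjamini-Hochberg, threshold 0.05). The step was tested on simulated data. The standard error of a log2 fold change is its size divided by the root of F. With 4 mice a group, p-values measure the spread between these mice. Alternatives used DESeq2 1.42.0, limma 3.58.1, other scalings and filters, and subsets of libraries. Named genes are the called members, the 6 with the most negative and up to 6 with the most positive fold change (3 were positive), the 6 with most counts, a fixed panel, called or panel genes of other translation lists and the 6 pseudogene rows with most counts. R 4.3.3, Python 3.11.15 and scipy 1.17.1 were used, and figures were drawn with matplotlib 3.10.9.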

Additional observations from a re-analysis of the deposited data

Results flagged for a closer look

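In 106 groups of 4 mice examined, 11 had 1 mouse standing apart from the other 3 by more than Dixon's criterion allows, and chance gives such a mark in about 1 of 20 groups. Control mouse 1 stood above the other control mice in the family's share of the counts (16.7%) and in that of the large subunit (9.18%). It was also the control mouse with the least Rps27l (805.2 CPM) and the most Npm1 (1023.8 CPM). KO mouse 4 had the least Rps15a of the KO mice (2682.7 CPM), and control mouse 2 the least of the control mice (3992.3 CPM). Control mouse 2 had the most Rps29 (5988.5 CPM) and control mouse 3 the least Rps4x (2659.7 CPM). KO mouse 3 had the most Rps3 of the KO mice (2112.5 CPM), KO mouse 2 the least Eef1a1 (3487.6 CPM) and KO mouse 1 the least Rps16-ps2 (458.05 CPM).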

How the results depend on the processing

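Over the 24 alternatives to the edgeR fit, the median log2 fold change of the tested members stayed between -0.39 and -0.24, and 0 members were called higher in each. The number called lower moved with the setting from 8. It was 2 without scaling factors, 15 with upper quartile factors and 13 with factors and totals from the other genes. Of all tested genes, 1.16, 3.23 and 3.13% were called lower there. Members called lower numbered 2 without a count filter, 5 at a minimum count of 30, 5 with DESeq2 and 16 with robust dispersion. The shares of all tested genes called lower there were 0.631, 2.95, 1.78 and 3.03%. With pseudogene rows added to their parents the number was 5, where 2.15% of all tested genes were called lower. It was 1 with technical replicates 2 and 3 alone (1.3% of all tested genes) and 1 to 8 without one mouse (0.941 to 1.99%). With the mouse number as replicate block, 3 members and 73 genes were called, and the numbers give no pairing. There 1.35% of all tested genes were called lower. The number of members called lower was 0 without libraries holding 10 counts of other cells' markers, for the full lists and for the lists without Bst2 and Tcf4. Of all tested genes, 0.113 and 0.531% were called lower there. The full lists left 2 KO and 4 control libraries, with 6 members lower at unadjusted p under 0.05. At that threshold 28 of the 882 genes tested there were lower and 48 higher. The cause of the lost calls was not tested. Of all genes, 103 were called, against 194 without a filter, 48 at a minimum count of 30, 51 with replicates 2 and 3 alone, 62 after thinning to 101017 counts, 1 and 24 without the libraries of the full and the shorter marker lists, and 56 to 111 without one mouse. Without the 50 most abundant other rows in the total, the share was 17.8% in KO mice and 22.0% in control mice. The difference was then -4.17 points in place of -2.75, and the ratio 0.81 in place of 0.83.

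Signs turned for 8 named genes, of which 0 were called. Rpl29 (0.00) was -0.064 with upper quartile factors, -0.044 with factors from other genes, -0.0090 without a filter, -0.016 with limma-trend, -0.012 with the replicate block, -0.045 with replicates 2 and 3, -0.057 without the full-list libraries, -0.0038 without mitochondrial and ribosomal RNA rows and -0.12 to 0.067 without one mouse. Without the full-list libraries Rpl3 was 0.026, Rpl36a 0.051 and Rack1 0.32. Without the shorter-list libraries Rpl24 was -0.031, Rplp1 0.13, Rpl3 0.039, Rack1 0.11 and Rps19-ps6 0.10. Npm1 ranged from -0.39 to 0.046 without one mouse. Depth limits the 4 members that were not tested.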
